A study of Rattus norvegicus with 9 samples.

Results

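Genes named for secreted proteins of the rat prostate, together with 2 membrane proteases, were followed over 9 microarrays of prostate tissue. They were chosen by name: 10 names were looked up among the transcript identifiers of the array, older synonyms allowed. As Psbpc1 is an older name of Scgb1d2, the 10 names stood for 9 genes, which were measured by 10 probes (Sbp by 2), out of 26905 genes or unnamed transcripts on the array. The genes are Scgb1d2, Scgb2a1, Sbp, Pbsn, Msmb, Azgp1, Klk1, Folh1 and Tmprss2.

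Total RNA had been taken from prostates of male Sprague Dawley rats, which were 6 weeks old at the start, with 3 arrays per group. Sham rats underwent a sham castration, received corn oil subcutaneously and were given distilled water by mouth. BPH rats were castrated, injected daily with dihydrotestosterone at 3 mg/kg for 4 weeks to model benign prostatic hyperplasia (BPH) and given distilled water by mouth. BPH+ghrelin rats had the same castration and injections, and were given rat ghrelin at 20 nmol/kg by gavage once daily during the last 2 weeks. Sham rats therefore kept their testes and their own testosterone, while both other groups had only the injected androgen. These treatments are those of the paper's methods. Its results and a figure legend name testosterone instead, and that legend gives ghrelin intraperitoneally at another dose. A table legend places the harvest 4 weeks after ghrelin began. Ghrelin is a peptide hormone of the stomach and the ligand of the growth hormone secretagogue receptor. No source used here says which lobes of the prostate were taken, or whether neighbouring glands were trimmed off.

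The rat prostate consists of paired ventral, lateral and dorsal lobes, and its luminal epithelial cells secrete a different mixture of proteins in each lobe. Prostatein, the dominant protein of ventral lobe fluid, is a steroid-binding secretoglobin of paired subunits, in which C1 (Scgb1d2) or C2 (Scgb1d4) is joined to C3 (Scgb2a1), and spermine-binding protein (Sbp) is another ventral product. Probasin (Pbsn) is a lipocalin secreted mainly by the dorsal and lateral lobes, and beta-microseminoprotein (Msmb) is a secretion of the lateral lobe. Most of these genes are known to depend on androgen, and the seminal vesicles and the coagulating gland, which lie against the prostate, have secretory proteins of their own.

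Values are the log2 of the array signal after quantile normalization, so that a difference of 1 is 2-fold. A gene was tested where the scanner software called its probe well above background on 3 or more of the 6 arrays compared, which held for 8 of the 9 genes in every comparison and not for Folh1. The tests were made with limma, which took 1 estimate of the spread per gene from all 3 groups. An SE or interval therefore also reflects the spread of the group outside the comparison. The p-values were adjusted by the Benjamini-Hochberg method over all genes tested. The methods describe the arrays of a group as separate rats for BPH and BPH+ghrelin and state the same group size in general, without singling out sham. If the sham arrays did not come from separate rats, p-values against sham measure only the spread between these samples. In bulk tissue, fewer cells of a type and less RNA per cell cannot be told apart, and so a lower signal of a lobe-specific gene may be either.

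Several properties of the arrays bear on what follows. The median raw signal was 40.9 on sham 2 and 73.3 to 133 on the other arrays, and 61.4% of the probes were well above background on sham 2 against 69.5% or more elsewhere. In each group 1 array lay mostly between the other 2: BPH 2 for 70.6%, BPH+ghrelin 2 for 68.4% and sham 3 for 72.8% of 22568 probes. Each remaining array lay between the others of its group for 10.2% to 17.9%. If these middle arrays were not independent of the other 2, p-values and intervals understate the spread. This was not tested. The arrays had been scanned in 3 runs. Scan 1 held the 3 BPH arrays and BPH+ghrelin 1, scan 2 held BPH+ghrelin 2 and 3 with sham 1 and 2, and scan 3 held sham 3. BPH and sham thus shared no scan.

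Probasin and beta-microseminoprotein, the products of the dorsal and lateral lobes, were the only genes of the group called, both lower than in sham. Msmb was called in BPH+ghrelin only. The ventral lobe genes were not called in any comparison, but Scgb2a1 was also lower in BPH+ghrelin. It differed by -3.69 from BPH and by -3.70 from sham, and by -1.15 and -1.16 without BPH+ghrelin 1. By raw signal, however, BPH+ghrelin 3 (38070) lay above sham 2 (35532). In BPH against sham, 1 of the 8 tested genes was called, Pbsn, which was lower, where 4.34% of all genes were called and 2.18% called lower. In BPH+ghrelin against BPH, 0 of 8 were called by limma, where 1.48% of all genes were called and 0.987% called lower. In BPH+ghrelin against sham, 2 of 8 were called, Pbsn and Msmb, both lower, where 6.29% of all genes were called and 3.3% called lower. At an unadjusted p under 0.05 the numbers were 3, 2 and 2 of 8, beside 26.5%, 21.1% and 23.7% of all genes.

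By the size of the difference alone, 2 of 8 were at least 2-fold lower in BPH against sham (Msmb and Pbsn), beside 4.63% of all genes, and 1 was at least 2-fold higher (Azgp1, but not without sham 1), beside 3.53%. Between BPH+ghrelin and BPH, 2 of 8 were at least 2-fold lower (Scgb2a1 and Msmb), beside 3.21% of all genes, and 0 were higher, beside 2.9%. Between BPH+ghrelin and sham, 3 of 8 were at least 2-fold lower (Msmb, Scgb2a1 and Pbsn), beside 4.2%, and 0 were higher, beside 3.21%. No overlap between the groups was found for 3 of 8 genes in each comparison, beside 31.3%, 39.2% and 30.4% of all genes. The median difference over the 8 genes was 0.04 on the log2 scale in BPH against sham, -0.19 in BPH+ghrelin against BPH and -0.04 in BPH+ghrelin against sham, beside medians of 0.04, 0.02 and 0.04 over all genes. The 3 comparisons share their groups with each other and are therefore not independent.

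**Figure D1:**
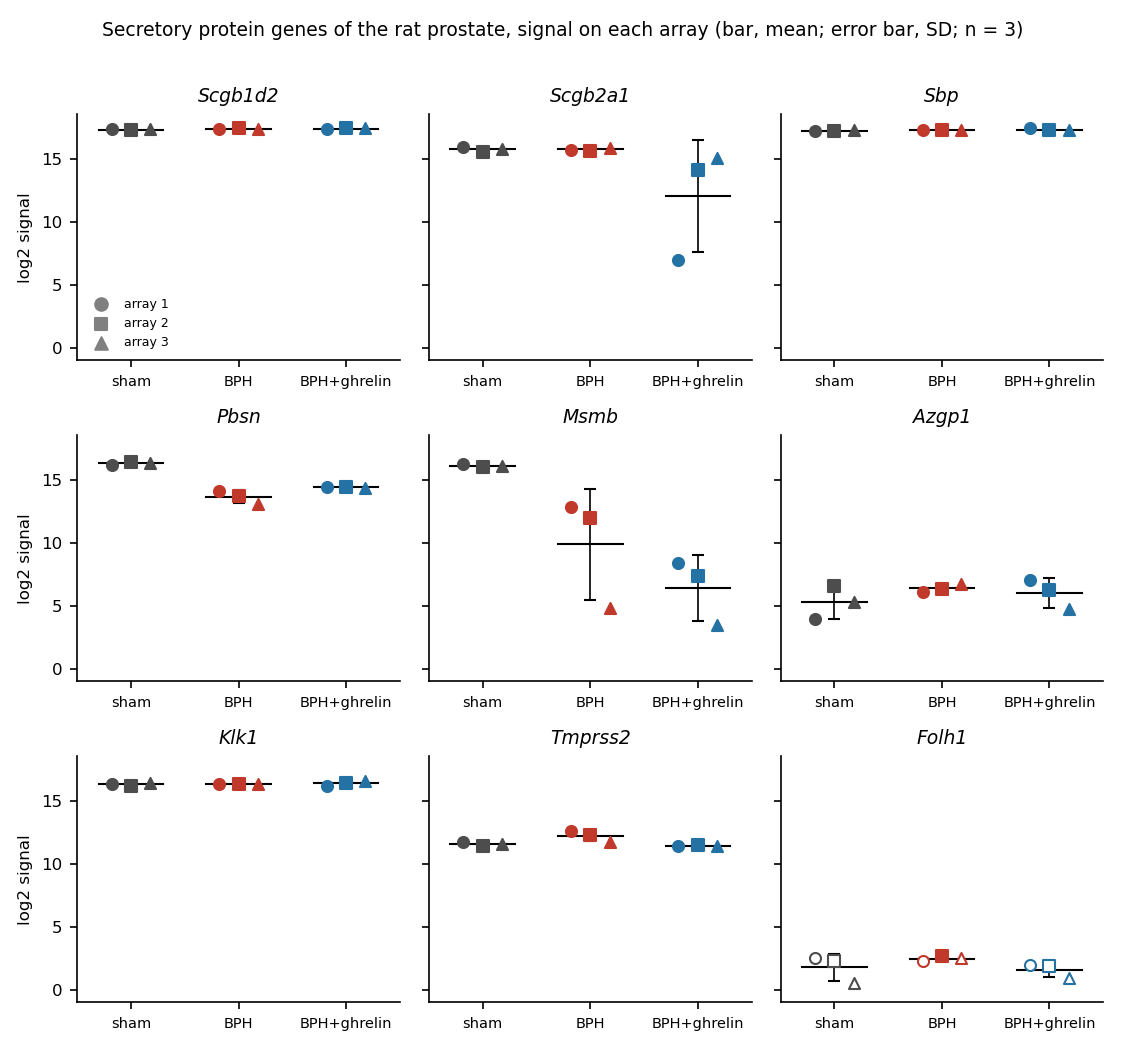
Log2 signal of the 9 genes on each array (y axis) in the sham, BPH and BPH+ghrelin groups (x axis). Points are single arrays, open where the probe was not well above background, horizontal bars are means and error bars SD over 3 arrays; Pbsn and Msmb sat below sham on all 6 arrays of castrated rats, and Scgb2a1 was low on BPH+ghrelin 1.

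In both comparisons with sham, the largest absolute differences among the genes tested in the group were those of Msmb. On the sham arrays its log2 signal was 16.22, 15.99 and 16.11. On the BPH arrays it was 12.80, 11.98 and 4.79, and on the BPH+ghrelin arrays 8.41, 7.37 and 3.45. All 6 arrays of castrated, dihydrotestosterone-treated rats lay below all 3 sham arrays, and the values within BPH spread over 8.01 log2 units while those of sham spread over 0.23. BPH 3 and BPH+ghrelin 3 were the lowest of their groups. As raw signal, Msmb gave 50493 to 74844 on sham arrays, 9650, 5257 and 32 on BPH arrays, and 326, 168 and 10 on BPH+ghrelin arrays. It was still well above background on all 9 arrays.

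In BPH+ghrelin against sham Msmb fell by 9.70 on the log2 scale (SE 2.07, 95% CI -14.44 to -4.96, adjusted p = 0.0345), which is 830-fold. In BPH against sham the difference was -6.25 (SE 2.07, adjusted p = 0.115), with no overlap of the arrays. With scan as a random block this comparison was called (adjusted p = 0.0228), in a fit that called many more of all genes. Between BPH+ghrelin and BPH the difference was -3.45 (SE 2.07, adjusted p = 0.369), and the arrays of both groups overlapped. Without BPH 3, the difference between BPH and sham was -3.71, and without BPH+ghrelin 3 that between BPH+ghrelin and BPH was -1.97. The call of BPH+ghrelin against sham was lost on leaving out any single array other than sham 2. The adjusted p was 0.0528 to 0.116 in those 5 fits, and the difference ran from -10.70 without BPH+ghrelin 1 to -8.22 without BPH+ghrelin 3. This call was also lost with scan as a fixed term (-10.70, adjusted p = 0.198) and without the filter on dim probes (-9.70, adjusted p = 0.0569). With the 3 intermediate arrays left out it was lost as well (-10.18, adjusted p = 0.584).

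Pbsn varied less within groups than Msmb. Its log2 signal was 16.16, 16.41 and 16.30 on sham arrays. It was 14.11, 13.72 and 13.11 on BPH arrays, and 14.46, 14.40 and 14.34 on BPH+ghrelin arrays. The 3 groups did not overlap: sham was highest, BPH+ghrelin came next and BPH was lowest. The raw signal was 68510 to 77161 in sham, 9329 to 21702 in BPH and 21443 to 24632 in BPH+ghrelin, so that by raw signal BPH 1 lay just above BPH+ghrelin 1.

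From sham to BPH, Pbsn fell by 2.65 on the log2 scale (SE 0.23, 95% CI -3.18 to -2.11, adjusted p = 0.00191), which is 6.27-fold. Between sham and BPH+ghrelin it fell by 1.89 (SE 0.23, 95% CI -2.42 to -1.36, adjusted p = 0.00459), which is 3.71-fold. BPH+ghrelin was above BPH by 0.76 (SE 0.23, 95% CI 0.22 to 1.29), and the adjusted p was 0.132. The exact permutation p was 0.1 for each of the 3 comparisons, the smallest that 3 against 3 arrays can give. Both calls against sham were kept on leaving out each array in turn. With scan as a fixed term the differences were -2.73 and -1.92, but the adjusted p was 0.308 and 0.0952. With the 3 intermediate arrays left out the differences were -2.68 and -1.89, and the adjusted p was 0.380 and 0.392, in a fit that called 3 and 2 genes of all.

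The promoters of Pbsn and Msmb, the only genes of the group that were called, are shown with the letters of an androgen response element. The full element was searched as the arms AGAACA and TGTTCT with any 3 bases between them, which reads the same on both strands. Its single arm was searched as AGAACA or, for the other strand, TGTTCT, and the TATA motif as TATAAA on the strand of the gene. Each arm of a full element also counts as a single arm. Sequences are RefSeq windows of assembly GRCr8, from 250 bases before to 50 bases after the start of the gene, written 5′ to 3′ on the strand of the gene, with the matches in capitals. The Pbsn window lies at chrX:45807934-45808233 on the minus strand and that of Msmb at chr16:7372569-7372868 on the plus strand.
Pbsn: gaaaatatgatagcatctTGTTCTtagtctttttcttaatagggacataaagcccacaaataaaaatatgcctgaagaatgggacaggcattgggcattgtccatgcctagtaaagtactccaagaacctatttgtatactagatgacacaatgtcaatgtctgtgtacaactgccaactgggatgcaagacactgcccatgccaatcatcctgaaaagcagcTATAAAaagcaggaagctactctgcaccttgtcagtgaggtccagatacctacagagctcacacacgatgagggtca
Msmb: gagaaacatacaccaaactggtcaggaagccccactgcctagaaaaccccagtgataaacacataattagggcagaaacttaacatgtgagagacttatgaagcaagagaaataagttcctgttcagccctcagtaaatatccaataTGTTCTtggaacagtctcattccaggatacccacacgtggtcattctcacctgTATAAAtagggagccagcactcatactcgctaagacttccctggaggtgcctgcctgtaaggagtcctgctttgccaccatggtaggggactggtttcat
Pbsn has 1 single arm, which begins 232 bases before the start, and TATAAA at 27 bases before it. Msmb has 1 single arm at 103 bases before the start and TATAAA at 50 bases before it. A single arm is present in 20.7% of 33469 promoter windows, TATAAA in 8.8% and the full element in 0.0149%. None of the windows of the 9 genes holds the full element. These matches are descriptions of letters in a short window and say nothing of binding.

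A list of dorsal and lateral lobe secretions had 4 genes, of which 3 were tested: Pbsn, Msmb and, as the only one not yet described, Tgm4, the prostate transglutaminase, which the coagulating gland also makes. Tgm4 gave a log2 signal of 9.62, 9.13 and 9.49 on sham arrays, 7.93, 7.15 and 4.93 on BPH arrays, and 6.42, 6.01 and 4.97 on BPH+ghrelin arrays. As with Msmb, array 3 was the lowest in BPH and in BPH+ghrelin, and both groups lay below sham throughout. Tgm4 fell in BPH+ghrelin against sham (-3.62, SE 0.71, adjusted p = 0.0261), and in BPH against sham the difference was -2.74 (adjusted p = 0.068). Its difference in BPH+ghrelin against BPH was -0.88 with no call. The differences of Tgm4 were also the medians of the 3 genes.

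Of 7 secretory genes of the seminal vesicle and coagulating gland tested against sham, 5 were lower and 2 higher in BPH, and likewise in BPH+ghrelin. Semg1, a semenogelin of the seminal vesicle fluid, gave 16.69, 16.07 and 16.69 on sham arrays, 14.53, 13.63 and 7.35 on BPH arrays, and 10.14, 9.45 and 5.24 on BPH+ghrelin arrays. The order of the arrays within both groups of castrated rats was the same as for Msmb. In BPH against sham 3 of the 7 were called lower (Svs3a, Svs3b and Svs4), and in BPH+ghrelin against sham 5 were (these 3, Semg1 and Tgm4). Svs3b was well above background on 3 of 3 sham, 1 of 3 BPH and 0 of 3 BPH+ghrelin arrays, so it was tested through its sham arrays and has only a bound in BPH+ghrelin. The remaining genes went the other way without a call: Svs6 differed by 1.27 in BPH (adjusted p = 0.338) and 0.32 in BPH+ghrelin (adjusted p = 0.851), and Svs5 by 0.26 (adjusted p = 0.721) and 0.52 (adjusted p = 0.51), all against sham. Of 6 tested in BPH+ghrelin against BPH, 0 were called by limma and 0 had an unadjusted p under 0.05. The summed signal of the list was 90844 to 158552 on sham arrays, 745 to 28525 on BPH arrays and 578 to 3968 on BPH+ghrelin arrays, and 4 to 7 of its 7 genes were well above background on every array. Whether the amount of lateral lobe or of neighbouring glands in the samples had a part in the values of Msmb was not tested. Pbsn had the same order of arrays as Msmb within BPH and within BPH+ghrelin, but between these groups its order was the other way, as all 3 BPH+ghrelin arrays lay above all 3 BPH arrays.

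**Figure D2:**
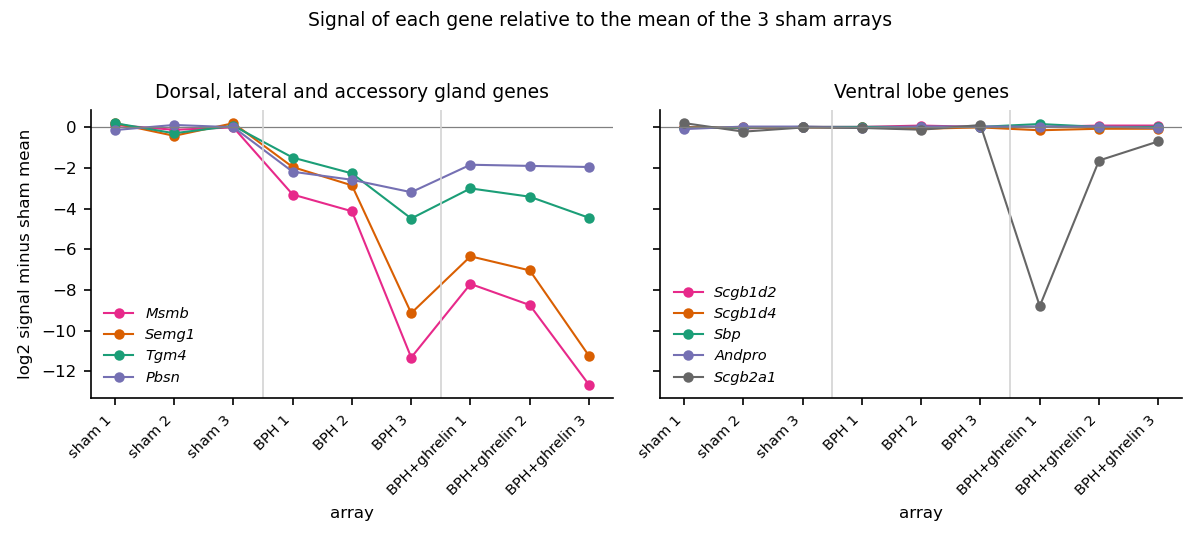
Log2 signal of each gene minus the mean of its 3 sham arrays (y axis) over the 9 arrays (x axis). At left, Msmb and Semg1 were lowest on BPH 3 and BPH+ghrelin 3 while Pbsn was lower in BPH than in BPH+ghrelin; at right, the ventral lobe genes stayed near 0 except Scgb2a1 on the BPH+ghrelin arrays.

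The C1 and C2 subunits of prostatein were among the brightest probes of every array. Scgb1d2, subunit C1, had a log2 signal of 17.33, 17.26 and 17.33 on sham arrays, 17.33, 17.40 and 17.33 on BPH arrays, and 17.33, 17.40 and 17.40 on BPH+ghrelin arrays. Scgb1d4, subunit C2, gave 17.40 on each sham array, 17.40, 17.33 and 17.40 on BPH arrays, and 17.26, 17.33 and 17.33 on BPH+ghrelin arrays. Among 30356 probes, Scgb1d2 ranked between 1 and 3, and so did Scgb1d4. Quantile normalization sets the value of a probe from its rank, which leaves little room for differences at these ranks.

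The raw signals of Scgb1d2 were 173973, 131656 and 161190 in sham, 176732, 182827 and 152714 in BPH, and 149644, 182596 and 194473 in BPH+ghrelin. These groups overlapped, and no spot was saturated. Neither subunit was called: the difference of Scgb1d2 was 0.05 in BPH against sham (95% CI -0.18 to 0.28, adjusted p = 0.784), 0.02 in BPH+ghrelin against BPH (95% CI -0.21 to 0.25) and 0.07 in BPH+ghrelin against sham (95% CI -0.16 to 0.30). With each array scaled to its 75th percentile in place of quantile normalization, the difference between BPH and sham was -0.74, and all 3 BPH arrays (16.81 to 17.00) lay below all 3 sham arrays (17.32 to 18.11). That scaling moved the median of all genes by -0.13 in this comparison, and it did not lead to a call of Scgb1d2. The direction for the brightest genes therefore depends on the scaling.

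Scgb2a1, subunit C3, had a distinct pattern. Its log2 signal was 15.95, 15.53 and 15.74 on sham arrays and 15.72, 15.63 and 15.86 on BPH arrays. On the BPH+ghrelin arrays it was 6.95, 14.11 and 15.05. By these values the sham and BPH arrays overlapped, and the 3 BPH+ghrelin arrays all lay below them, BPH+ghrelin 1 by far the most. The raw signal on BPH+ghrelin 1 was 114, against 20643 and 38070 on the other arrays of that group and 35532 to 63292 on sham and BPH arrays. By raw signal BPH+ghrelin 3 thus lay above sham 2. Scaled to the 75th percentile, BPH+ghrelin 3 (15.36) lay above BPH 1 (15.33) and BPH 2 (15.27).

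The difference of Scgb2a1 was -3.69 in BPH+ghrelin against BPH (SE 1.79, 95% CI -7.81 to 0.42, adjusted p = 0.279) and -3.70 in BPH+ghrelin against sham (SE 1.79, adjusted p = 0.252). Without BPH+ghrelin 1 the differences were -1.15 (adjusted p = 0.119) and -1.16 (adjusted p = 0.0844). These fits keep BPH+ghrelin 2, the intermediate array of its group. In BPH against sham it was -0.01 (95% CI -4.12 to 4.11). This interval takes in the spread of BPH+ghrelin (SD 4.43), while the SD was 0.12 in BPH and 0.21 in sham. With scan as a fixed term the differences were -8.78 in BPH+ghrelin against BPH (adjusted p = 0.00608) and 7.62 in BPH against sham (adjusted p = 0.0407), in fits that each called 2 of all genes, as BPH+ghrelin 1 is the only array of its group in the scan that holds the BPH arrays. Among 5130 probes with a mean log2 signal of at least 10 on the other 8 arrays, Scgb2a1 had the widest gap between BPH+ghrelin 1 and the next lowest array, 7.16 log2 units. The next widest gaps were those of a transcript with no gene name here, 5.25, and of Adipoq, the adipocyte hormone adiponectin, 2.70. The summed signal of 5 adipocyte markers was 485 on BPH+ghrelin 1, where 2 were well above background, against 4087 and 8164 on the other BPH+ghrelin arrays, 3022 to 6285 on BPH and 782 to 10040 on sham arrays. Scgb1d2 and Scgb1d4, whose proteins pair with that of Scgb2a1, showed no such gap: their ranks on BPH+ghrelin 1 were 2 and 3. What set Scgb2a1 apart on this array was not tested, and 1 probe measured it.

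The promoters of the 3 subunits are shown because 1 of these genes stood apart from the other 2 on BPH+ghrelin 1. The windows lie on chromosome 1 of GRCr8, at chr1:215656661-215656960 on the minus strand for Scgb1d2, chr1:215755113-215755412 on the plus strand for Scgb1d4 and chr1:215922501-215922800 on the plus strand for Scgb2a1. Capitals mark the same motifs.
Scgb1d2: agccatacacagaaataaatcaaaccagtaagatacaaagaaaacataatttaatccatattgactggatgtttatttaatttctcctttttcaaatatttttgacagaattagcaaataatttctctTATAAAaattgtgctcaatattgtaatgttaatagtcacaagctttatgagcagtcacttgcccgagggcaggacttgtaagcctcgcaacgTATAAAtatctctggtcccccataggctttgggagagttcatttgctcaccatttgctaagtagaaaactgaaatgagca
Scgb1d4: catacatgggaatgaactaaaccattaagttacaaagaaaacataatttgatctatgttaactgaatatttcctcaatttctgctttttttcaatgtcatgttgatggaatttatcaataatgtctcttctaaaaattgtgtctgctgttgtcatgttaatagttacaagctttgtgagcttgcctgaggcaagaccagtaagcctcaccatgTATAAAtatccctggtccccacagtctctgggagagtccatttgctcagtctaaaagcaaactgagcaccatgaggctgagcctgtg
Scgb2a1: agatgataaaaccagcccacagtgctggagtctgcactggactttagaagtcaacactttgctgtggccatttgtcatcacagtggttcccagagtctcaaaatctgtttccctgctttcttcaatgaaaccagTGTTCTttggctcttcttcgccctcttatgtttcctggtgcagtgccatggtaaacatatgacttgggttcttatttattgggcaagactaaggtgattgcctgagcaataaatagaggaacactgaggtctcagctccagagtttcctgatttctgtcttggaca
In a global alignment the windows of C1 and C2 were identical at 73.2% of the columns, while the next most alike pair among the 10 genes compared, Folh1 and Scgb1d4, reached 53.0%. C1 has TATAAA at 122 and 30 bases before the start, and C2 at 37 bases before it. C3 has no TATAAA and 1 single arm of the androgen response element, at 116 bases before the start. These too are descriptions of letters, and any link to the signal on BPH+ghrelin 1 was not tested.

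Sbp, the spermine-binding glycoprotein of ventral lobe fluid, was measured by 2 probes. The brighter probe gave 17.22, 17.22 and 17.26 on sham arrays, 17.26 on each BPH array, and 17.40, 17.26 and 17.26 on BPH+ghrelin arrays, and ranked 1 to 4. The other gave 16.73, 16.76 and 16.86 on sham arrays, 16.42, 16.67 and 16.69 on BPH arrays, and 16.64, 16.76 and 16.73 on BPH+ghrelin arrays, and ranked 8 to 25. The BPH arrays of the dimmer probe lay below its sham arrays, while those of the brighter probe overlapped with sham. For the gene, the differences were 0.03 (95% CI -0.21 to 0.26), 0.05 (95% CI -0.19 to 0.28) and 0.07 (95% CI -0.16 to 0.31) in BPH against sham, BPH+ghrelin against BPH and BPH+ghrelin against sham, and none was called. Scaled to the 75th percentile, the difference between BPH and sham was -0.71.

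Together with Andpro, an androgen-regulated secretory protein whose 9 arrays gave 16.91 to 17.03, these made a list of 4 ventral lobe genes. In all 3 comparisons 0 of the 4 were called by limma, 0 had an unadjusted p under 0.05, and the median differences were 0.02, 0.01 and 0.04. The 4 genes were well above background on all 9 arrays, and their summed signal was 490676 to 510359 on sham, 503454 to 515116 on BPH and 471906 to 491307 on BPH+ghrelin arrays. In the same arrays the summed signal of the dorsal and lateral list was 150633 to 152864 on sham, 8873 to 25111 on BPH and 20858 to 22904 on BPH+ghrelin arrays. The ventral sum is made of values that quantile normalization sets by rank, so its evenness says little about amounts. Scaled to the 75th percentile, Andpro had a mean of 16.64 in BPH and 17.27 in sham, lower in BPH as for Scgb1d2 and Sbp. The ventral markers of the labelled tissue were thus present on every array.

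**Figure D3:**
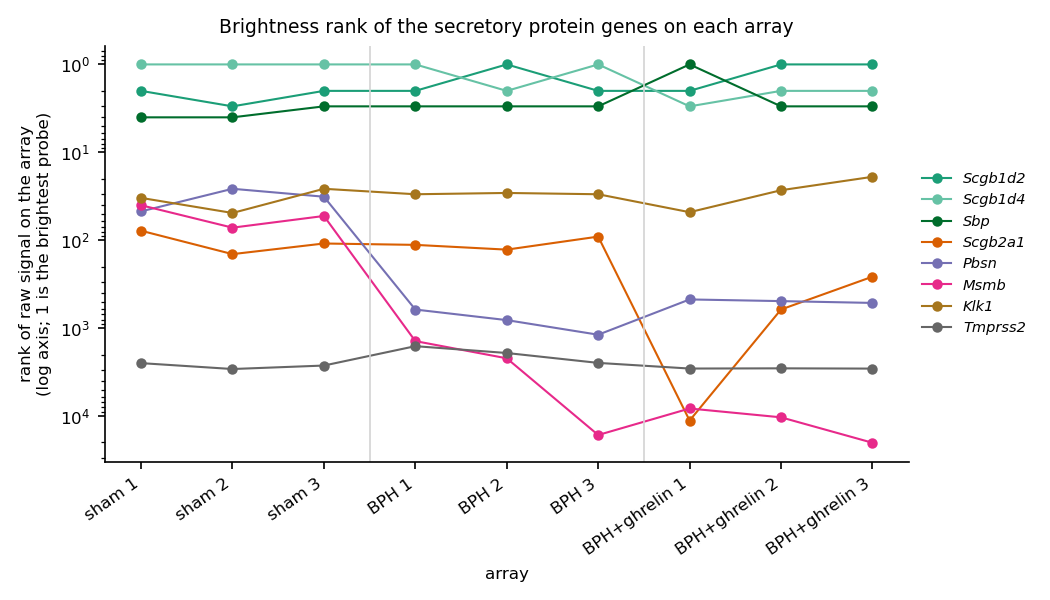
Rank of the raw signal among all probes of the array (y axis, log scale, 1 is the brightest) for 8 genes on the 9 arrays (x axis). Scgb1d2, Scgb1d4 and Sbp, drawn by the brighter of its 2 probes, kept ranks 1 to 4 (the other Sbp probe, not drawn, ranked 8 to 25); Pbsn went from ranks 26 to 47 on sham arrays to 472 to 1189 on the others, and Msmb from 40 to 72 to 1406 and beyond.

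Ranks do not depend on the scaling between arrays. Pbsn ranked 47, 26 and 32 on sham arrays, 615, 811 and 1189 on BPH arrays, and 472, 493 and 517 on BPH+ghrelin arrays. Msmb ranked 40, 72 and 53 on sham arrays, 1406, 2206 and 16455 on BPH arrays, and 8214, 10354 and 20158 on BPH+ghrelin arrays. The ranks of both genes separated sham from castrated rats without overlap, and the ranks of Pbsn also separated BPH from BPH+ghrelin.

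Klk1, the true tissue kallikrein, which releases kinins from kininogen, gave 16.29, 16.15 and 16.41 on sham arrays, 16.34, 16.36 and 16.34 on BPH arrays, and 16.16, 16.41 and 16.52 on BPH+ghrelin arrays. The groups overlapped. The differences were 0.06 (95% CI -0.24 to 0.37), 0.01 (95% CI -0.29 to 0.32) and 0.08 (95% CI -0.23 to 0.38), and none was called. Scaled to the 75th percentile, the difference between BPH and sham was -0.57, and all BPH arrays (15.96 to 16.08) lay below all sham arrays (16.20 to 16.92). Several rat kallikreins are near-identical copies and the probe sequences were not used here, so the signal of Klk1 cannot be told apart from that of its closest relatives.

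Of 17 other kallikreins listed, 14 were on the array and 8 were tested. In each comparison 0 were called by limma and 1 had an unadjusted p under 0.05. Klk1c10 had the largest difference of them in BPH against sham, -1.81 (adjusted p = 0.142), with values of 5.39 to 8.45 on sham arrays and 4.99 to 5.19 on BPH arrays. Klk1c8 gave 16.36, 16.81 and 16.58 on sham arrays, 16.52, 16.24 and 15.40 on BPH arrays, and 15.79, 15.98 and 15.98 on BPH+ghrelin arrays. Its difference in BPH+ghrelin against sham was -0.66 (adjusted p = 0.187), although those arrays did not overlap.

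Azgp1, zinc-alpha2-glycoprotein, a lipid-mobilizing protein of secretory epithelia, was dim but well above background on all 9 arrays. It gave 3.98, 6.60 and 5.28 on sham arrays, 6.12, 6.34 and 6.74 on BPH arrays, and 7.06, 6.28 and 4.71 on BPH+ghrelin arrays. The groups overlapped in every comparison. The differences were 1.11 (SE 0.73, adjusted p = 0.356), -0.38 (adjusted p = 0.794) and 0.73 (adjusted p = 0.598), and the SD within sham was 1.31. On leaving out each array the first of these ran from 0.46, without sham 1, to 1.76, without sham 2.

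Tmprss2, a transmembrane serine protease that is shed into prostatic fluid and known to respond to androgen, was measured by 10 spots per array, whose SD was 0.034 to 0.136. It gave 11.73, 11.41 and 11.60 on sham arrays, 12.57, 12.24 and 11.74 on BPH arrays, and 11.44, 11.45 and 11.43 on BPH+ghrelin arrays. All BPH arrays lay above those of both other groups, BPH 3 by 0.01 over sham 1. Scaled to the 75th percentile, BPH 3 (11.62) lay below sham 1 (11.64). The difference was 0.60 in BPH against sham (SE 0.21, 95% CI 0.13 to 1.08, adjusted p = 0.121) and -0.75 in BPH+ghrelin against BPH (SE 0.21, 95% CI -1.22 to -0.27, adjusted p = 0.105), so neither was called. Without BPH 3 the second difference was -0.97 (adjusted p = 0.0418). With scan as a random block, both differences were called, at 0.61 (adjusted p = 0.0153) and -0.75 (adjusted p = 0.0366), in fits that called 7084 and 1833 of all genes where 849 and 293 were called without the block. With scan as a fixed term they were 0.62 and -0.75, and neither was called (adjusted p = 0.914 and 0.548). BPH+ghrelin and sham differed by -0.14 (95% CI -0.61 to 0.33).

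Of 11 other transmembrane serine proteases and their partners, 9 were on the array and 7 were tested in BPH against sham. Only Spint1, an inhibitor of matriptase and related proteases, was called, with a rise of 0.96 (SE 0.19, adjusted p = 0.0355) from 6.82 to 7.53 on sham arrays to 7.97 to 8.33 on BPH arrays. St14, matriptase itself, differed by 0.42 (adjusted p = 0.27) and Spint2 by 0.54 (adjusted p = 0.267). In the other comparisons 0 of 6 were called by limma, and 1 and 0 had an unadjusted p under 0.05.

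Folh1, the glutamate carboxypeptidase known as prostate-specific membrane antigen, was well above background on BPH 2 only. Its log2 signal was 0.58 to 2.51 on sham, 2.29 to 2.64 on BPH and 0.93 to 1.95 on BPH+ghrelin arrays, with raw signals of 1.56 to 7.85. No difference could be tested, and only a bound is known for 8 of 9 arrays.

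**Figure D4:**
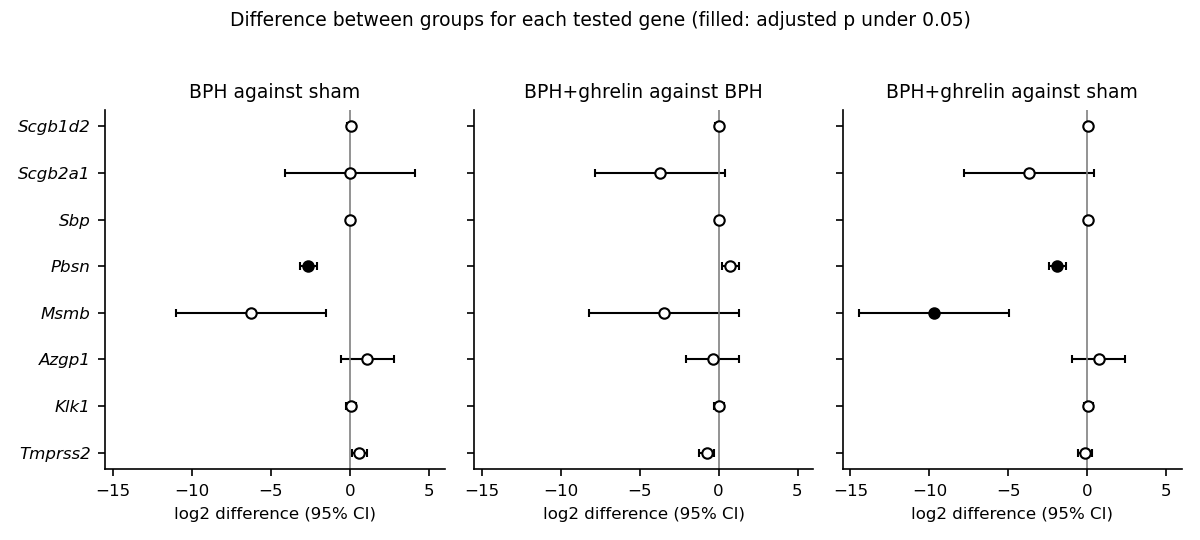
Log2 difference with its 95% CI (x axis) for the 8 tested genes (y axis) in BPH against sham, BPH+ghrelin against BPH and BPH+ghrelin against sham. Filled points have an adjusted p under 0.05 in limma: Pbsn at -2.65 and -1.89, and Msmb at -9.70.

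Other secretoglobins were few. Of 6 listed, 5 were on the array and 4 were tested, Scgb1d4 included. In the 3 comparisons 0 were called by limma, and 1, 1 and 0 had an unadjusted p under 0.05. Scgb1c1 differed by -0.90 in BPH against sham (adjusted p = 0.121), and Scgb1a1, a secretoglobin of airway club cells, by 0.66 in BPH+ghrelin against sham (adjusted p = 0.211).

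Among 18 other genes known to respond to androgen, 1 was called higher and 1 lower in BPH against sham, 0 higher and 1 lower in BPH+ghrelin against BPH, and 1 higher and 3 lower of 17 in BPH+ghrelin against sham. Sord, sorbitol dehydrogenase, fell by 1.41 in BPH (adjusted p = 0.00732) and fell by 0.97 in BPH+ghrelin (adjusted p = 0.0224), both against sham. Mme, the membrane peptidase neprilysin, had the order of Tmprss2. It rose by 0.95 in BPH against sham (adjusted p = 0.0259), fell by 0.98 in BPH+ghrelin against BPH (adjusted p = 0.0393) and differed by -0.03 in BPH+ghrelin against sham. The median over the list was 0.23, -0.20 and -0.03. Pmepa1 fell by 0.61 (adjusted p = 0.0492) and Tsc22d3 rose by 0.64 (adjusted p = 0.048) in BPH+ghrelin against sham. The remaining gene called lower there was Tgm4, described above, which this list also holds.

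Markers of the cells that secrete these proteins were present on every array. All 8 luminal epithelial markers were well above background on all 9 arrays, with a summed signal of 75092 to 105027 on sham, 84923 to 133505 on BPH and 82688 to 105999 on BPH+ghrelin arrays. Of these, Krt8 and Spint1 rose in BPH against sham, Krt8 by 0.96 (adjusted p = 0.00909), and the median difference of the list was 0.45. From BPH to BPH+ghrelin 0 of 8 were called by limma, with 2 at an unadjusted p under 0.05, and the median was -0.27. In BPH+ghrelin against sham 1 of 8 was called, Krt8, which rose by 0.75 (adjusted p = 0.017), and the median was 0.16. For smooth muscle, all 7 markers were detected on every array, and 1, Myh11, fell in BPH+ghrelin against BPH (-0.96, adjusted p = 0.0157) and against sham (-1.07, adjusted p = 0.00245). The immune list fell at 2 of 4 genes, Cd74 and Ptprc, in both of these comparisons. Of the basal epithelial list, 2 of 5 rose in BPH against sham, Krt14 by 0.72 (adjusted p = 0.0447) and Krt17 by 0.95 (adjusted p = 0.0355), and 1, Krt15, in BPH+ghrelin against sham (1.21, adjusted p = 0.017). Tp63, the transcription factor of basal cells, went the other way without a call, with -0.73 (adjusted p = 0.112) and -0.57 (adjusted p = 0.191) in these comparisons, and Krt5 differed by 0.30 and -0.34. Among markers of the urothelium, the lining of the urinary tract, Upk1a fell by 1.75 in BPH (adjusted p = 0.0249) and by 2.00 in BPH+ghrelin (adjusted p = 0.0123), while Upk1b rose by 1.28 (adjusted p = 0.018) and 0.93 (adjusted p = 0.0379), all against sham. The summed signal of the urothelial list was 405 to 766 on sham, 260 to 286 on BPH and 211 to 275 on BPH+ghrelin arrays. Of the 6 skeletal muscle markers, 1 was called: Ckm, the muscle creatine kinase, fell by 1.90 in BPH (adjusted p = 0.00451) and by 1.96 in BPH+ghrelin (adjusted p = 0.00261), both against sham. In each of these comparisons 4 of the 6 were lower and 2 higher without a call. The higher ones were Acta1 (0.54) and Myh2 (0.42) in BPH, and Acta1 (0.19) and Myh1 (0.67) in BPH+ghrelin. Of the 6 fibroblast markers, 1, Lum, fell in BPH+ghrelin against BPH (-1.65, adjusted p = 0.024) and against sham (-1.42, adjusted p = 0.0145). Against sham this was not the direction of most of the list, as 4 of 6 were higher, among them Col1a1 by 0.91 without a call (adjusted p = 0.231), and the median was 0.15. The part of these cell types in the values of the secretory genes was not tested.

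Genes with the most similar profile over the 9 arrays were searched among 9684 named genes that were well above background throughout. For Pbsn these were Zpbp2 (r = 0.990), Mthfs (0.982), Gpr37l1 (0.980), Sh3bp1 (0.979) and Pvalb (0.977). For the mean of Scgb1d2 and Scgb2a1, which mostly follows the low value of Scgb2a1 on BPH+ghrelin 1, they were Fermt3 (r = 0.983), Atp7a (0.977), Hs3st3a1 (0.965), Upk3bl1 (0.944) and Rpl12 (0.936). For Azgp1 they were Sirt3 (r = 0.918), Or6aa1b (0.915), Dusp29 (0.911), Gucy2g (0.911) and Ccl21 (0.902). These correlations describe likeness over 9 arrays that share groups and scans, and carry no test.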

How the data were processed

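Rat prostate RNA was measured on 9 one-colour Agilent arrays with 44254 spots each, 3 arrays each for sham, BPH and BPH+ghrelin, grouped by their labels. The intensity values deposited by the authors were background-subtracted scanner signals on a linear scale, not normalized between arrays. The authors also deposited a matrix of quantile normalized log2 values with a floor of 2.322, used only as an alternative. The scanner software's outlier spots were left out, log2 intensities were averaged per probe (30356 probes) and quantile normalized over 9 arrays. Accessions matched a RefSeq symbol of GRCr8 for 59.3% of the probes. Probes entered a comparison with 3 or more of its 6 arrays well above background, and the brightest of these stood for a gene. limma 3.58.1 (lmFit, eBayes, R 4.3.3) was fitted to 3 groups, with Benjamini-Hochberg adjustment over 19197 to 19749 genes. A call is an adjusted p under 0.05. The fit was tested on simulated data. The number of arrays limits the precision.

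The genes and the lists were chosen with earlier results of these data known. Of each list, up to 4 genes with the largest differences and the called genes could be named, and for Pbsn, the mean of Scgb1d2 and Scgb2a1, and Azgp1 the 5 most similar profiles. Alternatives were other scaling, background correction, filters and probe rules, a fit to 6 arrays, blocks for replicate number and scan, the deposited matrix, another moderation, and arrays left out. Protein sequences were not used here. Some genes of the lists are not reported here and were left out of their counts.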

Additional observations from a re-analysis of the deposited data

How the results depend on the processing

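Each count of called genes and each difference was recomputed under the alternatives. Of 448 recomputed differences of single genes, 399 were counted as the same. For most settings this meant an unreversed direction and the same side of the threshold, and a difference of 0 was not counted as reversed. Differences within a single scan had no p-value. They counted as the same when no further from the main value than the larger group SD, for uncalled genes in either direction. With the replicate number as a block, 1, 0 and 2 secretory genes were called in BPH against sham, BPH+ghrelin against BPH and BPH+ghrelin against sham, as without it, while the counts over all genes were 242, 20 and 462. Deviations of same-numbered arrays correlated at -0.14 to 0.26, so the numbers do not pair the arrays.

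The count of called genes in BPH against sham was 3 with scan as a random block and 0 with the 3 intermediate arrays left out, a setting chosen after seeing the data. In BPH+ghrelin against BPH it was 1 with scan as a fixed or as a random block, and 0 to 1 on leaving out each array. In BPH+ghrelin against sham it was 1 without a filter on dim probes, 0 with scan as a fixed block, 0 without the 3 intermediate arrays, and 1 to 2 on leaving out each array. Without the intermediate arrays each group had 2 arrays, and 3, 0 and 2 of all genes were called. With scan as a fixed block these counts over all genes were 2, 2 and 85, and with scan as a random block 7084, 1833 and 1229, against 849, 293 and 1207 without a block. The causes of these changes were not tested.

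Scaled to the 75th percentile, BPH against sham gave -0.71 for Sbp, -0.74 for Scgb1d2 and -0.57 for Klk1, and BPH+ghrelin against sham gave -0.14, -0.20 and -0.14. With normexp, run on median spot signals, BPH against sham gave -0.038 for Sbp and 0.022 for Scgb2a1, BPH+ghrelin against BPH gave -0.034 for Scgb1d2 and -0.10 for Klk1, and BPH+ghrelin against sham gave -0.030 for Klk1. The mean of both Sbp probes gave -0.082 in BPH against sham. With scan as a fixed block, BPH against sham gave -0.10 for Sbp, 7.62 for Scgb2a1 and -0.46 for Azgp1, and BPH+ghrelin against BPH gave -0.022 for Scgb1d2, 0.66 for Azgp1 and -0.19 for Klk1. Without the intermediate arrays, Scgb2a1 gave 0.043 in BPH against sham and Klk1 -0.0050 in BPH+ghrelin against BPH. On leaving out each array, the direction also turned for Scgb2a1 and Klk1 in BPH against sham, Azgp1 and Klk1 in BPH+ghrelin against BPH and Klk1 in BPH+ghrelin against sham, over ranges of -0.11 to 0.10, -0.0038 to 0.13, -0.90 to 0.27, -0.067 to 0.11 and -0.0026 to 0.18.

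Signals limit Folh1, which was not above background on 8 of 9 arrays, and the brightest genes, whose normalized values are set by rank.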

Other observations

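Genes known to rise in the prostate after castration were measured beside the secretory genes, as 6 genes of which 5 were tested. In BPH against sham 0 of the 5 were called by limma, with 3 at an unadjusted p under 0.05, in BPH+ghrelin against BPH 1 was called lower, and in BPH+ghrelin against sham 1 was called higher and 1 lower. Clu, the secreted chaperone clusterin, gave a log2 signal of 11.88 to 12.58 on sham arrays, 13.43 to 13.67 on BPH arrays and 10.52 to 12.32 on BPH+ghrelin arrays, with a difference of 1.30 in BPH against sham (adjusted p = 0.103) and -2.03 in BPH+ghrelin against BPH (adjusted p = 0.0569). Mgp, matrix Gla protein, fell by 0.98 in BPH+ghrelin against BPH (adjusted p = 0.0244), from 13.67 to 13.91 on BPH arrays to 12.75 to 12.88 on BPH+ghrelin arrays. Against sham, BPH+ghrelin had a higher Timp1, an inhibitor of matrix metalloproteinases (1.17, adjusted p = 0.0116), and a lower Igfbp2, a binding protein of insulin-like growth factors (-0.72, adjusted p = 0.0425).

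Profiles over the 9 arrays were also searched for Msmb and Tmprss2, a choice made after their values were seen. The genes most like Msmb were Semg1 (r = 0.995) and Tgm4 (r = 0.987), the former a product of the seminal vesicle and the latter of the prostate and the coagulating gland, followed by Pafah1b3 (r = 0.972). The genes most like Tmprss2 were Bckdhb (r = 0.989) and Bcl2l14 (r = 0.989), and Ndrg1, another gene known to respond to androgen, was among the first 5 (r = 0.983). Ndrg1 gave 6.35 to 7.14 on sham arrays, 7.11 to 8.55 on BPH arrays and 6.20 to 6.63 on BPH+ghrelin arrays, and was not called in any comparison.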
